A study of Mus musculus with 12 samples.

Results

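The genes described here encode the proteins of the cytosolic ribosome. They were taken from the gene table by symbol, as Rpl or Rps followed by a number with an optional a, x or l, together with Rplp0, Rplp1, Rplp2 and Rpsa, and only where the table lists a protein-coding transcript. This gave 79 genes of 29862, 31 of the small subunit (Rps) and 48 of the large subunit (Rpl). The symbols of 82 genes matched, and Rps4l, Rpl6l and Rpl32l were left out because no protein-coding transcript is listed for them. The rule also leaves out a few true ribosomal proteins and relatives with other names (Rps3a1, Fau and Rack1 among them), which are given separately below.

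RNA was sequenced from mouse mandibular fibrochondrocytes, cells of the condylar cartilage of the jaw joint, in 12 libraries of 4 groups of 3. NG2|EDmut cells carry a CRISPR/Cas9 truncation of the type VI collagen binding region in the ectodomain of NG2/CSPG4, a transmembrane proteoglycan. Control cells are the parent line, 1 GFP-sorted clone immortalized with hTERT from condylar cells of C57BL/6J pups aged 10 to 14 days, and the edited cells were made from that clone, so both lines carry hTERT and GFP, and an effect of the truncation cannot be told apart from other differences between 2 cell lines. Each line was grown in AMEM with heat-inactivated FBS (serum-supplemented) or under serum starvation in Opti-MEM, so the loss of serum and the change of basal medium cannot be told apart either, and the sources used here do not state for how long the cells were starved. The study's methods call the 3 libraries of a group biological replicates, but as each line is 1 clone and nothing states what was replicated, p-values measure only the spread between these libraries.

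The ribosome reads mRNA on its small subunit and joins amino acids on its large subunit. Each of its proteins is needed in about the same number of copies, and their mRNAs are among the most abundant in growing cells. Growth signals through mTORC1 act mainly on the translation of these mRNAs, through a run of pyrimidines at their 5′ end called the TOP motif, and less on their amount. The proteins are made in the cytoplasm, carried into the nucleus by importins and dedicated chaperones, and assembled on rRNA in the nucleolus.

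The libraries held between 60277881 and 77172479 estimated counts. Control serum replicate 1 stood apart from its own group: its log2 CPM correlated at a mean r of 0.972 with the other control serum libraries and 0.981 with the starved controls. Ribosomal RNA genes took 4.82% of the estimated counts in control starved replicate 2, against 0.490% to 3.68% in the other libraries. Both libraries also held the highest share of ribosomal protein counts, so results that rest on them are given with and without them. Col1a1 (18949 to 28466 CPM) and Col1a2 (17022 to 28052 CPM) were high in every library. Of the cartilage markers, Sox9 (18.8 to 49.2 CPM) and Col2a1 (9.68 to 46.9 CPM) were present in every library, while Acan reached at most 1.34 CPM, Prg4 2.17 CPM and Col10a1 2.28 CPM. The summed markers of macrophages stayed between 2.40 and 7.58 CPM, those of endothelium between 0.199 and 1.03 CPM and those of epithelium between 1.73 and 14.3 CPM. Cspg4 itself, counted over the whole gene and therefore no check of the truncation, had 151 to 251 CPM in NG2|EDmut cells and 53.9 to 178 CPM in control cells.

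The start of these genes was read from the RefSeq promoter table (GRCm38.p6), which holds 59 of the 79. The TOP pattern was taken as a C at the annotated start base followed by at least 4 further pyrimidines. It stood at the start of 13 of the 59 genes (22.0%), against 3.01% of all 27025 genes in that table. In the protein-coding transcripts of GENCODE M21, 22 of the 79 genes (27.8%) had at least 1 transcript that began with it, against 5.12% of 21901 genes. Annotated starts are often off the true start by a few bases, and within 5 bases on either side of the RefSeq start the pattern was found in 28 of 59 genes (47.5%), against 21.2% of all genes. These counts describe the annotation, since start sites were not measured here. The letters CGGAAG, the core that ETS family factors bind, occurred on either strand within the 300 bases around the start of 41 of the 59 genes (69.5%), against 18.8% of all genes. The windows below show 15 bases before the start and 15 from the start base on, for 6 genes with the pattern and for 2 of the genes that differed most between the lines and lack it. Capitals mark the run of pyrimidines from the start base.
Rps6, chr4:86857353-86857382, minus strand: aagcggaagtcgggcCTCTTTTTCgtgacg
Rpl14, chr9:120571502-120571531, plus strand: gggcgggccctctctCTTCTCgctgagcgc
Rps10, chr17:27635230-27635259, minus strand: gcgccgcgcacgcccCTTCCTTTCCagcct
Rps15a, chr7:118116133-118116162, minus strand: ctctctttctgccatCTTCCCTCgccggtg
Rpl38, chr11:114668565-114668594, plus strand: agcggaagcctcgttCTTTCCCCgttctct
Rps27, chr3:90213634-90213663, minus strand: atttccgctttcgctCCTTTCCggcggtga
Rpl10, chrX:74270801-74270830, plus strand: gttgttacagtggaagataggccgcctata
Rps4x, chrX:102189377-102189406, minus strand: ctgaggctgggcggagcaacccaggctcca

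The windows of Rps6 and Rpl38 also hold the letters CGGAAG shortly before the start. The 22 genes with a transcript that begins with the pattern and the 56 other tested genes had like median log2 fold changes in each comparison. Under serum starvation the medians of NG2|EDmut over control were −0.26 with the pattern and −0.31 without it, and in serum they were −0.10 and −0.11. No test was made of this split.

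The 79 genes were highly expressed, with 1 exception. Over all libraries 78 of them averaged between 23.8 and 1670 FPKM, with a median of 209 FPKM. The 5 highest were Rplp0 (1670 FPKM), Rplp1 (1459 FPKM), Rps15 (1275 FPKM), Rps2 (1128 FPKM) and Rpl4 (969 FPKM). Rplp0 and Rplp1 belong to the stalk of the large subunit that recruits the factors driving translation, and the third stalk protein, Rplp2, averaged 76.1 FPKM. The 5 lowest were Rpl21 (23.8 FPKM), Rpl39l (32.8 FPKM), Rps19 (39.0 FPKM), Rps15a (39.6 FPKM) and Rps27l (39.6 FPKM). Rpl3l, the heart and skeletal muscle counterpart of Rpl3, averaged 0.0157 FPKM, was listed at no more than 0.142 FPKM in any library and was removed by the filter on low counts. Rpl39l and Rps27l, the counterparts of Rpl39 and Rps27, had 18.6 to 36.3 CPM and 19.0 to 49.6 CPM.

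The order of FPKM levels between genes depends on the length by which the authors divided. The length implied by the estimated counts, their sum per library and the FPKM was 1.08 times the union of all annotated exons of each of the 78 genes. This factor hardly differed between these genes, so their order followed the union. The union includes transcripts with retained introns, and it was between 1 and 11.9 times the median protein-coding transcript of the same gene, with a median of 2.47. The union was 6270 bases for Rps15a and 499 bases for Rplp1, so genes such as Rps15a and Rps19 are understated per transcript. Levels of 1 gene across libraries do not depend on this length and are given below as CPM, the estimated counts relative to the TMM-scaled size of the library.

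The first question was whether the lines differ in serum-supplemented medium. In NG2|EDmut cells 4 of the 78 tested genes were higher and 11 were lower than in control cells, by edgeR's quasi-likelihood test with a Benjamini-Hochberg adjusted p under 0.05. Among all 18703 tested genes 15.4% were higher and 16.2% were lower, so the share of ribosomal protein genes called lower (14.1%) was near the background and the share called higher (5.13%) was below it. The median log2 fold change was −0.11 over the 78 genes and −0.03 over all tested genes. Leaving out control serum replicate 1 moved the median to 0.02 and the counts to 10 higher and 8 lower, and leaving out control serum replicate 2 moved the median to −0.19. Over all genes 5894 of 18703 were called in the full fit and 7657 of 19265 without control serum replicate 1.

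Under serum starvation 5 genes were higher and 21 lower in NG2|EDmut cells than in control cells. The background was 17.9% higher and 20.1% lower over all genes, against 6.41% and 26.9% of the ribosomal protein genes. The median log2 fold change was −0.30 over the 78 genes, of which 63 were below 0, and −0.02 over all tested genes. This shift rested in part on control starved replicate 2. Without it the median was −0.10 and 12 genes were lower. Over all genes 7111 of 18703 were called with this library and 6370 of 19230 without it.

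No library is shared between these 2 comparisons, and 13 genes were called in both, which is 86.7% of those called in serum and 50% of those called under starvation. All 13 had the same sign in both media. Over all genes, 69.9% of those called in serum and 57.9% of those called under starvation were called in both, and 97% of these had the same sign. Among the 4 higher in NG2|EDmut cells were Rps6, Rpsa and Rpl14, and among the 9 lower were Rpl10, Rps4x, Rpl36a, Rpl39, Rpl37a, Rpl24, Rps13 and Rps29. Over the 78 genes the log2 fold changes in the 2 media correlated at r = 0.853, and over all 18703 tested genes at r = 0.657 (description, no test). These 2 values are not matched for expression, since only 6196 tested genes reached 29.4 CPM, the lowest level among the 78.

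Rps6, of the small subunit, was among the genes that rose most. It is the ribosomal protein that S6 kinases phosphorylate downstream of mTORC1. Rps6 had 1621, 1697 and 1600 CPM in NG2|EDmut cells in serum, against 1014, 713 and 870 CPM in control cells. Under serum starvation it had 1446, 1364 and 1435 CPM in NG2|EDmut cells, against 770, 1018 and 871 CPM in control cells. The groups did not overlap in either medium. The log2 fold change was 0.92 ± 0.14 (SE, adjusted p = 0.000465 by edgeR) in serum and 0.68 ± 0.14 (adjusted p = 0.00255 by edgeR) under starvation.

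Rpsa, a small subunit protein also known as the laminin receptor, and Rpl14, of the large subunit, are near neighbours on chromosome 9. Rpsa had 2515, 2743 and 2737 CPM in NG2|EDmut cells in serum, against 2088, 1673 and 1942 CPM in control cells. Rpl14 had 533, 588 and 500 CPM, against 450, 341 and 410 CPM. Both rose by similar amounts, 0.49 ± 0.13 for Rpsa (adjusted p = 0.0115) and 0.43 ± 0.14 for Rpl14 (adjusted p = 0.0372) on the log2 scale by edgeR, and by 0.40 each under starvation (adjusted p = 0.0254 and 0.0465). These are the less stable of the rises: Rpl14 was no longer called in 13 of 27 alternative analyses in each medium. Rpl7a was higher only by the test under starvation, at 434, 673 and 661 CPM in NG2|EDmut cells against 334, 360 and 492 CPM in control cells, with overlapping groups (0.58 ± 0.20, adjusted p = 0.0378 by edgeR). Its difference in serum was 0.34 ± 0.20 (adjusted p = 0.216 by edgeR), and whether the media differ was tested by the interaction, which called no ribosomal protein gene.

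All 4 of the genes on chromosome X were lower in NG2|EDmut cells in both media. Rpl10, which joins the large subunit late in its assembly, had 687, 699 and 671 CPM in NG2|EDmut cells in serum, against 1311, 891 and 1026 CPM in control cells. Under starvation it had 723, 684 and 707 CPM, against 1225, 1678 and 1347 CPM. The 6 NG2|EDmut libraries lay close together and below every control library. Rps4x, the X-linked form of a small subunit protein, had 723, 776 and 753 CPM in NG2|EDmut cells in serum, against 1272, 1051 and 1234 CPM in control cells. Rpl36a had 84.7, 84.9 and 88.0 CPM, against 147, 120 and 150 CPM. Rpl39, which lines the exit tunnel of the large subunit, had 53.2, 54.4 and 56.3 CPM, against 118, 71.8 and 93.7 CPM. The log2 fold changes in serum were −0.65 ± 0.15 for Rpl10, −0.66 ± 0.13 for Rps4x, −0.70 ± 0.19 for Rpl36a and −0.79 ± 0.22 for Rpl39, with adjusted p by edgeR of 0.0068, 0.00224, 0.0144 and 0.0165. Under starvation they were −1.01 ± 0.15, −0.88 ± 0.13, −0.90 ± 0.19 and −0.98 ± 0.22, with adjusted p by edgeR of 0.000271, 0.000214, 0.00253 and 0.00382.

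**Figure D1:**
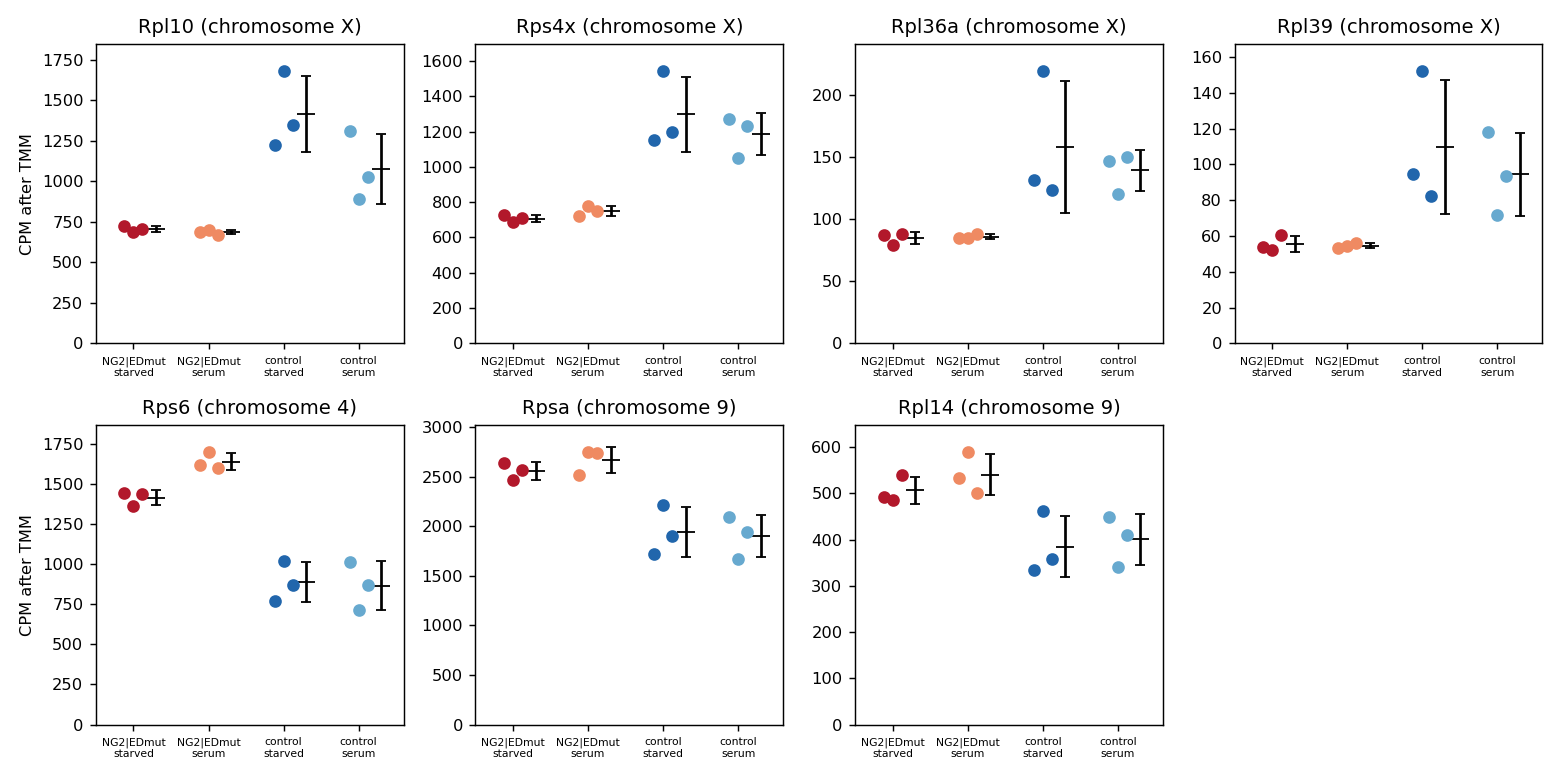
CPM after TMM scaling of the 4 ribosomal protein genes of chromosome X (upper row) and of 3 genes higher in NG2|EDmut cells in both media (lower row), one point per library, with the mean and SD of each group of 3 in black. Axes start at 0. For the X-linked genes every NG2|EDmut library lies below every control library, and for Rps6, Rpsa and Rpl14 every NG2|EDmut library lies above every control library of the same medium.

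Of the other genes that fell, Rpl37a moved most. Rpl37a had 85.4, 93.0 and 89.7 CPM in NG2|EDmut cells in serum, against 167, 132 and 166 CPM in control cells (−0.79 ± 0.14, adjusted p = 0.00145 by edgeR). Under starvation it had 88.5, 79.9 and 84.8 CPM, against 154, 200 and 135 CPM (−0.95 ± 0.14, adjusted p = 0.000271 by edgeR). Rpl41, the smallest of the ribosomal proteins, had 506, 574 and 540 CPM in NG2|EDmut cells in serum, against 976, 749 and 940 CPM in control cells (−0.72 ± 0.15, adjusted p = 0.00423 by edgeR). Under starvation its difference was −0.41 ± 0.15 and was not called (adjusted p = 0.0558 by edgeR). Rps7 was called only under starvation, at 498, 463 and 483 CPM in NG2|EDmut cells against 754, 1178 and 763 CPM in control cells (−0.90 ± 0.17, adjusted p = 0.00149 by edgeR), where the value of 1178 CPM came from control starved replicate 2. In serum it was −0.39 ± 0.17 (adjusted p = 0.105 by edgeR). Other genes called lower included Rpl24, Rps13 and Rps29 in both media, Rpl38 in serum, and Rps3, Rps10, Rps15a, Rps20, Rpl7, Rpl22, Rpl27a, Rpl31, Rpl34 and Rpl36 under starvation. With control starved replicate 2 left out, Rps10, Rps13, Rps15a, Rps20, Rpl22, Rpl27a, Rpl34 and Rpl36 were no longer called under starvation. Rps3, Rps7, Rpl7 and Rpl31 kept their calls under starvation in all 27 alternatives. Rpl38 lost its call in serum in 14 of 27.

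The counts of calls moved by over 1.5 times with single libraries. Calls over all genes moved as well. The full fit called 5894 of 18703 genes in serum and 7111 under starvation. With 1 library left out, between 4121 of 19274 and 7657 of 19265 genes were called in serum. Under starvation the range was from 5481 of 19241 to 8655 of 19265 genes. In serum, 6 genes were lower without NG2|EDmut serum replicate 1 or without replicate 2, 7 without control serum replicate 3, and 7 were higher without control starved replicate 2. Under starvation, 13 were lower without NG2|EDmut starved replicate 1, 12 without replicate 2, and the 5 higher genes became 3, 2 and 2 without NG2|EDmut starved replicates 1, 2 and 3 and 2 without control starved replicate 1. Rpl10, Rpl37a, Rps4x and Rps6 were among the 5 genes called in both media in all 27 alternatives.

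Several ribosomal proteins known for other roles were not called between the lines. Rpl5 and Rpl11, which with 5S rRNA bind Mdm2 and so link the ribosome to p53, had log2 differences of 0.41 ± 0.16 (adjusted p = 0.0722 by edgeR) and −0.25 ± 0.15 (adjusted p = 0.207 by edgeR) in serum. Under starvation these were −0.16 ± 0.16 and −0.34 ± 0.15. Rplp0, often used as a reference gene in qPCR, had 3363, 3499 and 3121 CPM in NG2|EDmut cells in serum, against 2983, 2338 and 2495 CPM in control cells, so its groups did not overlap although it was not called (0.35 ± 0.13, adjusted p = 0.0547 by edgeR). Without control serum replicate 1, a result chosen after the values were seen, it was called at 0.46 ± 0.11 (adjusted p = 0.00569 by edgeR). Rps19 and Rps14, whose loss causes forms of anemia in humans, were at −0.23 ± 0.20 and 0.10 ± 0.18 in serum and at −0.48 ± 0.20 and −0.42 ± 0.18 under starvation. Rpl3 (0.23 ± 0.14 in serum), Rpl13a (0.17 ± 0.20), Rps27a (−0.21 ± 0.19) and the paralogs Rpl39l (−0.01 ± 0.20) and Rps27l (−0.29 ± 0.23) were not called in either medium. Rpl22 was called under starvation (−0.45 ± 0.16, adjusted p = 0.0441 by edgeR) and lost the call in 18 of 27 alternatives.

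The difference between the lines varied with the position of the genes in the genome. The 79 genes lie on 19 chromosomes, 14 of them on chromosome 7. For each of the 78 tested genes the median log2 fold change of the other tested genes that start within 10 Mb on either side was taken, over 36 to 429 neighbours, with all ribosomal protein genes and their pseudogenes left out of the neighbours. The fold change of the ribosomal protein genes correlated with this neighbourhood median at r = 0.767 (Spearman 0.763) in serum and r = 0.707 (Spearman 0.654) under starvation. The points share libraries, and windows of nearby genes overlap, so these values are descriptions. Without the 4 genes of chromosome X the correlations were 0.726 and 0.658 over 74 genes. The same measure over other genes with at least 29.4 CPM, the lowest level of a tested ribosomal protein gene, was r = 0.347 in serum and 0.291 under starvation (6093 genes). Of the genes called, 14 of 15 in serum and 25 of 26 under starvation had the sign of their neighbourhood, while over all 78 genes 62 in serum and 54 under starvation did. Of other called genes at or above the same CPM, 73% in serum and 67.5% under starvation had the sign of theirs.

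Rps6, at chr4:86854660-86857412 (GRCm38), rose by 0.92 and 0.68 in a neighbourhood of 0.23 and 0.27 over 60 genes, so its own difference was larger. The 598 other tested genes of chromosome X had a median of −0.51 in serum and −0.42 under starvation, and 74.4% of them were below 0 in serum. The X-linked Rpl10, Rps4x, Rpl36a and Rpl39 lay in neighbourhoods of −0.60, −0.57, −0.59 and −0.35 in serum. The genes themselves were at −0.65, −0.66, −0.70 and −0.79. Under starvation the neighbourhoods were at −0.51, −0.50, −0.45 and −0.26, and the genes at −1.01, −0.88, −0.90 and −0.98. Rpl39 thus lay well below its neighbours in both media, and the other X-linked genes did so under starvation. In that medium the 78 genes as a whole lay low, not only those on chromosome X. Their median was −0.30, against −0.02 over all tested genes, and −0.10 without control starved replicate 2. The window shared by Rpsa and Rpl14 on chromosome 9 was at 0.30 in serum and 0.28 under starvation. Rpl37a on chromosome 1 (neighbourhood −0.16 in serum) and Rpl24 on chromosome 16 (−0.21) fell well below their neighbours. DNA copy number was not measured in these samples, and its part in these differences was not tested.

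**Figure D2:**
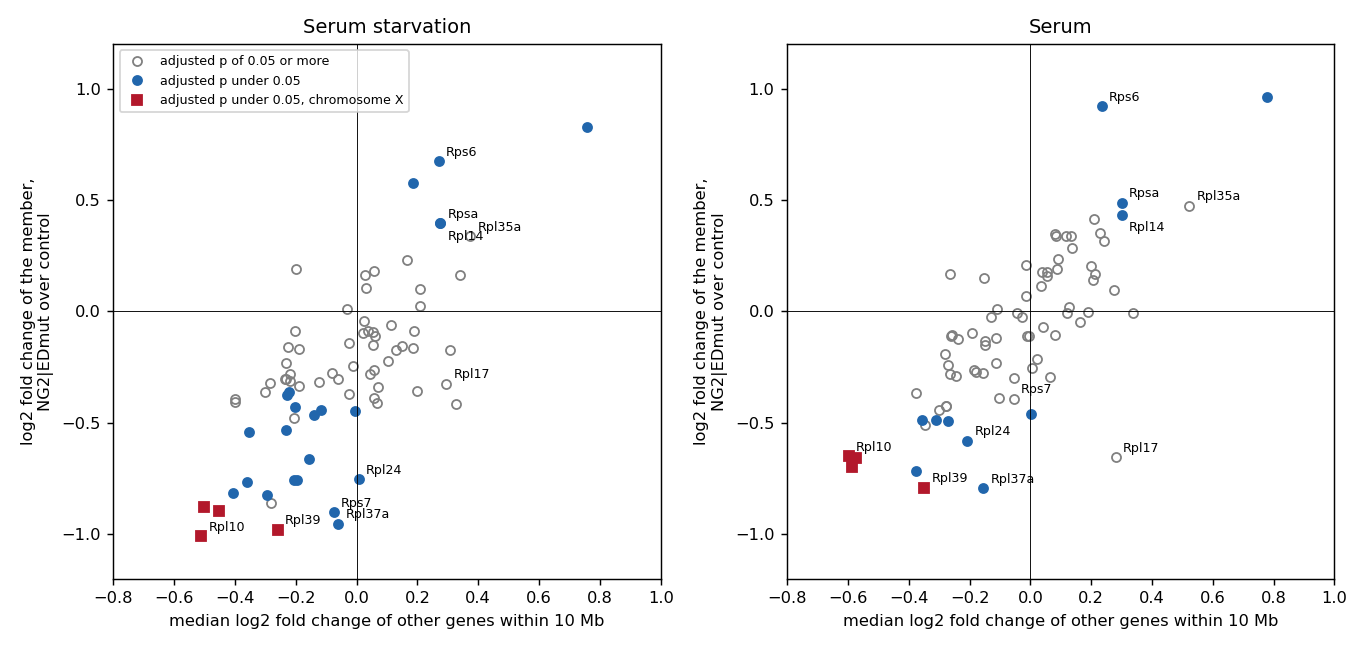
Log2 fold change of each of the 78 tested ribosomal protein genes, NG2|EDmut over control (vertical), against the median log2 fold change of the other genes within 10 Mb (horizontal), under serum starvation (left) and in serum (right). Filled symbols have an adjusted p under 0.05, and squares are on chromosome X. The points rise together, from the X-linked genes at lower left to the upper right (r = 0.707 and 0.767).

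As a whole the ribosomal protein genes took a similar share of the libraries in both lines. They held 4.77% ± 0.18 of the estimated counts in NG2|EDmut cells in serum and 4.59% ± 0.71 in control cells (SD, n = 3 each). Under starvation they held 4.42% ± 0.15 in NG2|EDmut cells and 4.77% ± 0.77 in control cells. Single NG2|EDmut libraries ranged from 4.26% to 4.97% and single control libraries from 3.87% to 5.66%, so the lines overlapped. Within NG2|EDmut cells the 3 starved libraries (4.26% to 4.52%) all lay below the 3 serum libraries (4.66% to 4.97%), while starved and serum control libraries overlapped. The highest shares were those of control starved replicate 2 (5.66%) and control serum replicate 1 (5.29%). With FPKM in place of counts, the starved (7.96% to 8.42%) and serum (7.72% to 9.01%) NG2|EDmut libraries overlapped. The share of counts from mitochondrially encoded genes was 2.33% in starved NG2|EDmut cells and 4.17% in starved control cells without overlap, and its part in these values was not tested. In bulk RNA, more RNA per cell and more cells that make it cannot be told apart.

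The control libraries also varied more among themselves. The median SD between replicates of log2 CPM was 0.067 in NG2|EDmut cells and 0.271 in control cells, and it was smaller in NG2|EDmut cells for 77 of the 78 genes. Over the 6196 genes at or above the same expression the medians were 0.090 and 0.233, so the contrast between the lines was not limited to ribosomal protein genes.

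The ratio of small over large subunit counts was nearly constant, and it moved in opposite directions in the 2 lines. On the log2 scale it was −0.527, −0.529 and −0.522 in starved NG2|EDmut cells, against −0.561, −0.547 and −0.558 in serum. In control cells it was −0.552, −0.572 and −0.619 under starvation, against −0.542, −0.514 and −0.505 in serum. Thus all starved libraries lay above all serum libraries in NG2|EDmut cells, by a mean of 0.03, and below them in control cells, by −0.06. Between the lines the ratio was lower in NG2|EDmut cells in serum (−0.03) and higher under starvation (0.05), without overlap in either. As linear ratios the 4 group means lay between 0.669 and 0.697, and no test was made of a sum over the genes. With FPKM in place of counts the 2 control groups overlapped, and the difference under starvation was 0.03. With pseudogene counts added to each gene the starved libraries still lay above the serum libraries in NG2|EDmut cells and below them in control cells. Single-gene medians had the order of the ratio in serum but not under starvation. In serum the median log2 fold change of NG2|EDmut over control was −0.21 for the small subunit and −0.01 for the large subunit. There 7 of 31 and 8 of 47 genes were called (22.6% and 17%, against 31.5% of all tested genes). Under starvation the medians were −0.33 and −0.26.

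**Figure D3:**
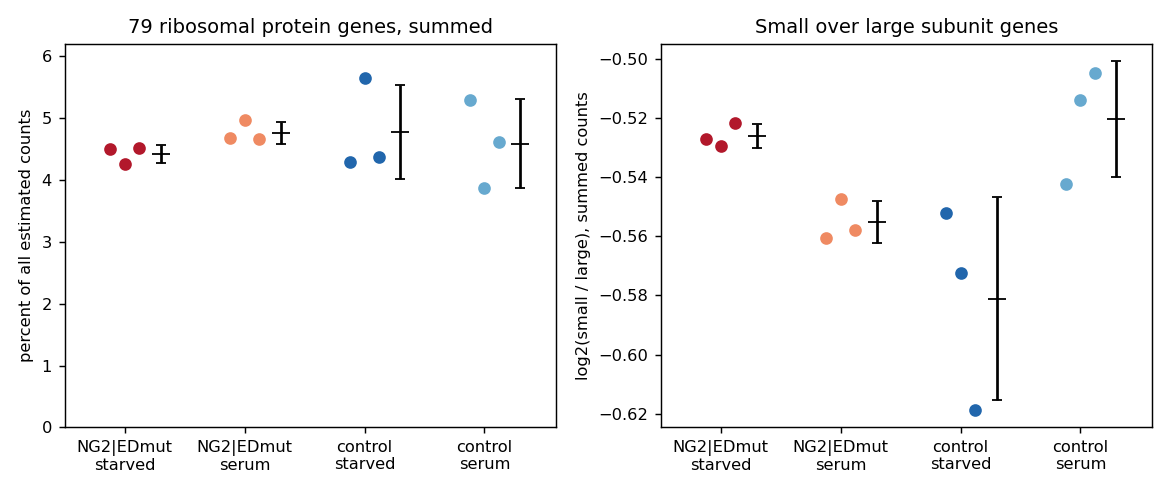
Left, share of all estimated counts held by the 79 ribosomal protein genes, in percent. Right, log2 ratio of summed counts of small over large subunit genes. Points are libraries, and black marks are the mean and SD of the 3 libraries of a group. The shares of the lines overlap, while the ratio is higher under starvation than in serum in NG2|EDmut cells and lower in control cells.

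The second question was how the genes respond to serum starvation. In NG2|EDmut cells no ribosomal protein gene was called by edgeR between starvation and serum, none had an unadjusted p under 0.05, and DESeq2 and limma also called none. Over all genes 2.06% were called. The shift was small and in 1 direction: 70 of 78 genes were below 0, with a median of −0.12, against −0.01 over all genes. In 37 of the 78 genes all 3 starved libraries lay below all 3 serum libraries, against 17.2% of all tested genes, and the reverse order occurred in none, against 15.9% of all tested genes. The spread in this fit is estimated over all 12 libraries, and the control libraries vary more. With the 6 NG2|EDmut libraries fitted alone, 10 genes were lower and none higher, where 15.7% of all tested genes were called. These 10, named after their values were seen, were Rpl5, Rpl6, Rpl10a, Rpl12, Rpl13a, Rpl15, Rpl34, Rps3, Rps6 and Rps7, with log2 fold changes of −0.34 to −0.21.

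Rpl10a had 654, 609 and 660 CPM in starved NG2|EDmut cells, against 812, 880 and 753 CPM in serum. Rpl5 had 838, 803 and 835 CPM, against 977, 1034 and 1017 CPM. In both genes every starved library was lower than every serum library. In the NG2|EDmut libraries alone the differences were −0.34 ± 0.07 (adjusted p = 0.0126 by edgeR) for Rpl10a and −0.29 ± 0.06 (adjusted p = 0.00926 by edgeR) for Rpl5, and in the fit of all 12 libraries the adjusted p was 0.473 and 0.522.

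In control cells no ribosomal protein gene was called by edgeR, DESeq2 or limma, and 4 had an unadjusted p under 0.05 in edgeR, 3 higher and 1 lower. Over all genes 20.2% were called. The median was 0.09, against 0.04 over all genes, and 20 of 78 genes were below 0. No gene had starved libraries that all lay on one side of the serum libraries, while 28% of all tested genes did. The gene with the smallest p was Rpl10, at 1225, 1678 and 1347 CPM in starved cells against 1311, 891 and 1026 CPM in serum (0.40 ± 0.15, adjusted p = 0.0874 by edgeR). Rps27l, a gene that p53 induces, had 29.5, 39.0 and 19.0 CPM in starved cells against 45.4, 32.9 and 49.6 CPM in serum (−0.55 ± 0.23, adjusted p = 0.113 by edgeR). These values depended on the 2 libraries that stood apart. Without control serum replicate 1 the median was 0.20 and 4 genes were called higher (Rpl4, Rpl10, Rps14 and Rps28). Over all genes 6390 of 19265 were then called. Without control serum replicate 2 the median was −0.02 and no ribosomal protein gene was called, where 2225 of all 19312 genes were. Without control starved replicate 2 the median was −0.11 and 1 gene was called (Rps27l, lower), where 2943 of all 19230 genes were.

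The difference between the 2 responses was tested by the interaction of line and medium. It called no ribosomal protein gene by edgeR, DESeq2 or limma, 2 genes (Rpl5 and Rpl4) had an unadjusted p under 0.05 in edgeR, both lower, and 4.39% of all genes were called. The median was −0.19 over the 78 genes and −0.03 over all genes. Without control serum replicate 1 it was −0.31 and Rpl4, Rpl5, Rpl10 and Rpl10a were called, where 3901 of all 19265 tested genes were called. Without control starved replicate 2 the median over the 78 genes was 0.03.

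Genes that act on ribosomal proteins were called where the ribosomal proteins themselves were not. Of 11 chaperones and import or assembly factors, 7 fell (63.6%, against 10.8% of all genes) and none rose (9.45% of all genes) under starvation in control cells, with a median of −0.78. Ltv1, which is needed to mature the small subunit, had 38.5, 39.4 and 38.0 CPM in starved control cells, against 55.3, 79.2 and 82.0 CPM in serum (−0.90 ± 0.13, adjusted p = 0.0012 by edgeR). Heatr3, which carries Rpl5 into the nucleus, fell by 0.93 on the log2 scale, the importin Ipo7 by 0.78 and nucleolin (Ncl) by 0.98. In NG2|EDmut cells none of the 11 was called between starvation and serum, with a median of −0.18, and only 2.06% of all genes were called. The interaction of line and medium called 1 of the 11 (Ltv1, 9.09%, against 4.39% of all genes). Under starvation 7 of the 11 were higher in NG2|EDmut than in control cells and 1 was lower (63.6% and 9.09%, against 17.9% and 20.1% of all genes). In serum 1 was higher and 1 lower (9.09% each, against 15.4% and 16.2% of all genes).

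Of 78 mitochondrial ribosomal protein genes, which form a separate ribosome, 9 fell and none rose under starvation in control cells (median −0.25). The 11.5% that fell were near the 10.8% of all genes, and 9.45% of all genes rose. In NG2|EDmut cells none was called (median −0.03), where 2.06% of all genes were called. Between the lines, 22 were higher and 3 lower in NG2|EDmut cells under starvation, and 10 higher and 5 lower in serum (background 17.9% and 20.1% under starvation, 15.4% and 16.2% in serum). Among those with the smallest adjusted p were Mrps22 (1.94 under starvation and 1.06 in serum), Mrps15 (1.48 and 1.101) and Mrpl50 (1.34 and 1.05).

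Of 18 regulators of growth and translation, 1 rose and 6 fell under starvation in control cells (5.56% and 33.3%, against 9.45% and 10.8% of all genes). Myc, a transcription factor that drives ribosome production, had 54.2, 54.9 and 54.2 CPM in starved control cells, against 85.4, 189.9 and 188.5 CPM in serum (−1.51 ± 0.24, adjusted p = 0.00185 by edgeR). In NG2|EDmut cells it had 149, 151 and 140 CPM under starvation, against 262, 274 and 203 CPM in serum, and was not called (−0.75 ± 0.24, adjusted p = 0.163 by edgeR). Every starved NG2|EDmut library was still lower in Myc than every serum library. The interaction of line and medium did not call Myc, so its response was not shown to differ between the lines. Larp1, which binds TOP mRNAs, had 181, 177 and 192 CPM in starved control cells, against 254, 326 and 295 CPM in serum (−0.67 ± 0.11, adjusted p = 0.00191 by edgeR). Eef2k, the kinase that slows elongation, fell in control cells (adjusted p = 0.000352 by edgeR), and the S6 kinase gene Rps6kb1 fell by 0.79 on the log2 scale. Only Deptor, an inhibitor of mTOR, was called in NG2|EDmut cells (5.56% of the 18, against 2.06% of all genes). It had 3.43, 3.68 and 2.99 CPM under starvation against 10.1, 8.76 and 6.37 CPM in serum (−1.32 ± 0.23, adjusted p = 0.0114 by edgeR). Between the lines 4 regulators were higher and 1 lower in NG2|EDmut cells in serum (22.2% and 5.56%, against 15.4% and 16.2% of all genes), among them Eif4ebp1, the mTORC1 target that holds back cap-dependent translation. Eif4ebp1 had 167, 176 and 155 CPM, against 95.9, 46.6 and 55.8 CPM (1.33 ± 0.23, adjusted p = 0.00119 by edgeR). Under starvation 8 were higher and 1 lower (44.4% and 5.56%, against 17.9% and 20.1%).

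Of 25 other TOP mRNAs, mostly elongation and initiation factors, 3 were higher and 3 lower in NG2|EDmut cells in serum (12% each, below the background of 15.4% and 16.2%) and 3 higher and 7 lower under starvation (12% and 28%, against 17.9% and 20.1%), including Tpt1 (−0.98 ± 0.16) and Eif3f (−1.02 ± 0.18). Starvation called 3 higher and 3 lower in control cells (12% each, near the 9.45% and 10.8% of all genes) and none in NG2|EDmut cells (against 2.06% of all genes). Of the 10 relatives outside the naming rule, Rack1, a scaffold on the small subunit, was higher in NG2|EDmut cells in serum (0.60 ± 0.16, adjusted p = 0.0145 by edgeR). Rps3a1, a true small subunit protein, was lower under starvation, with 854, 786 and 862 CPM in NG2|EDmut cells against 1163, 1642 and 1258 CPM in control cells (−0.70 ± 0.15, adjusted p = 0.0029 by edgeR). Fau, whose protein is fused to a ubiquitin-like protein, was not called (−0.01 ± 0.17 in serum).

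**Figure D4:**
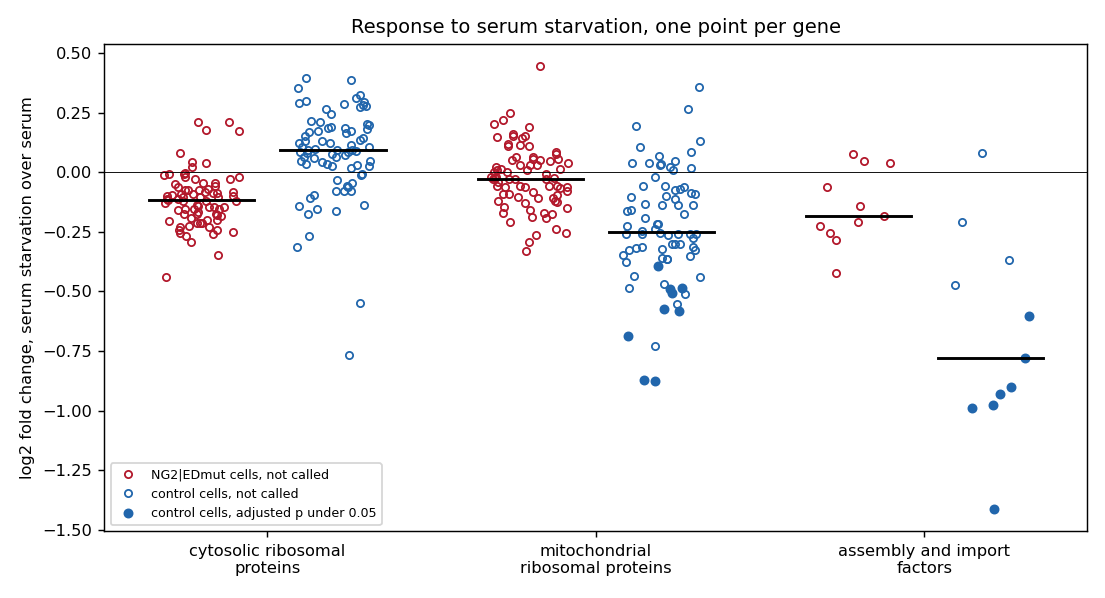
Log2 fold change of serum starvation over serum for cytosolic ribosomal protein genes (78), mitochondrial ribosomal protein genes (78) and assembly and import factors (11), one point per gene, in NG2|EDmut cells (red) and control cells (blue), with the median as a black line. Filled points have an adjusted p under 0.05. The filled points are 9 mitochondrial genes and 7 factors in control cells, and no cytosolic ribosomal protein gene is filled.

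Ribosomal protein genes have many processed copies in the mouse genome, and the table lists 237 rows of such pseudogenes. Reads that fit both can be split between a gene and its copies, so the levels of these genes are uncertain. For 57 of the 79 genes at least 1 copy is listed, and in 15 genes the copies held over 10% of the counts of gene and copies together. The median share over the 79 genes was 0.982%. The highest were Rpl21 (66.7%), Rpl17 (66.0%), Rps12 (43.5%), Rps10 (32.1%) and Rpl14 (28.2%), of which Rpl14 and Rps10 are among the genes called between the lines. With its copies added Rpl14 was no longer called in serum (0.40 ± 0.14, adjusted p = 0.0513 by edgeR) or under starvation (0.37 ± 0.14, adjusted p = 0.0607 by edgeR).

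Rpl17 had 162, 58.8 and 264 CPM in starved NG2|EDmut cells and 129, 112 and 416 CPM in serum, against 374, 162 and 71.8 CPM in starved control cells and 681, 222 and 130 CPM in serum. Libraries of 1 group thus differed widely, with an SD of 1.14 on the log2 scale within groups. The sum of Rpl17 and its 7 copies ranged only from 519 to 992 CPM, with an SD of 0.27. Rpl17-ps10 had 64.0 CPM in NG2|EDmut serum replicate 3, where Rpl17 was high, and 243 and 248 CPM in replicates 1 and 2, where it was low.

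Rps27 behaved likewise with Rps27rt, a retrotransposed copy. Rps27 had 121, 215 and 49.8 CPM in starved control cells and Rps27rt had 24.7, 42.4 and 93.4 CPM. Rps27 alone was not called under starvation (−0.86 ± 0.38, adjusted p = 0.0957 by edgeR), at 69.5, 65.3 and 77.6 CPM in NG2|EDmut cells. With its 2 copies added it had 83.1, 81.8 and 87.0 CPM in NG2|EDmut cells against 146, 257 and 143 CPM in control cells and was called lower (−1.12 ± 0.21, adjusted p = 0.00139 by edgeR). This sum was chosen after the data were seen. Summed with copies in the same way, 3 genes were higher and 10 lower in serum, and 4 higher and 22 lower under starvation. Of all 18527 genes tested in that fit, 5879 were called in serum and 7090 under starvation.

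**Figure D5:**
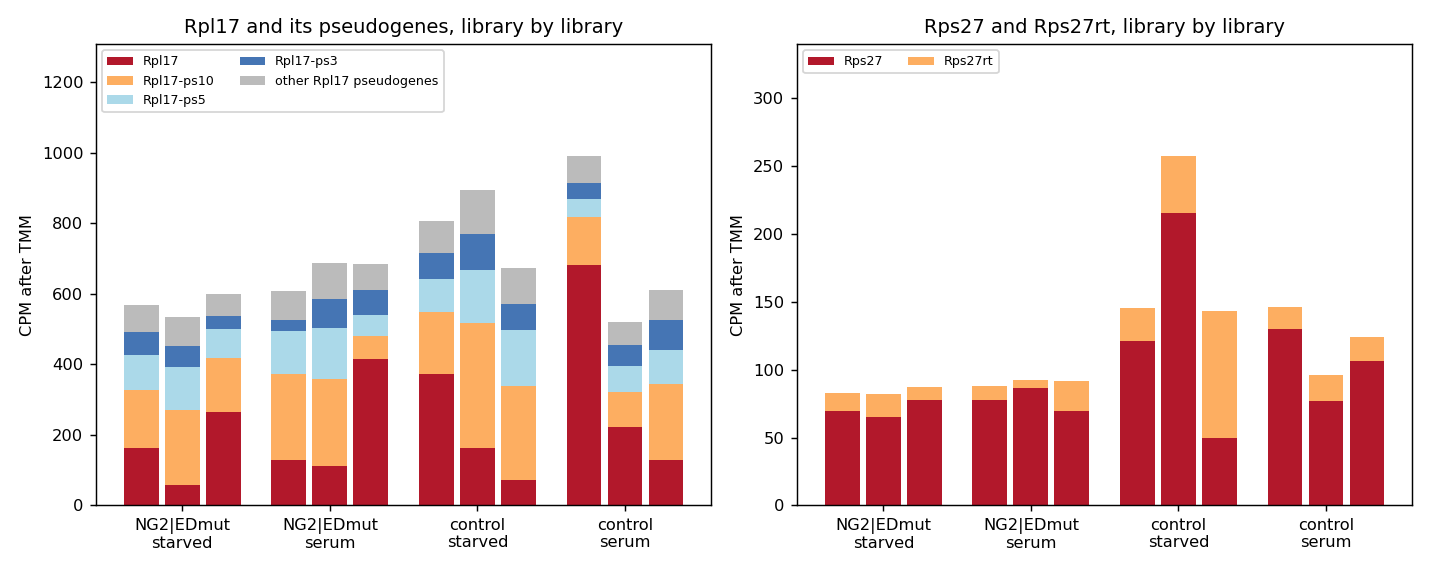
CPM of Rpl17 and its pseudogenes (left) and of Rps27 and Rps27rt (right), stacked, one bar per library, in groups of 3. The height of the Rpl17 bars lies between 519 and 992 CPM while the part counted as Rpl17 itself ranges from 58.8 to 681 CPM. In the third starved control library most Rps27 counts fall on Rps27rt.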

How the data were processed

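RNA-seq of 12 libraries was analysed from a table in which the authors deposited estimated counts and FPKM values per gene. Per the labels and the study's methods, the authors ran FastQC, HISAT2, StringTie and edgeR. The library kit was stranded (TruSeq Stranded mRNA). The sources used here state no version or build and not whether strand was used in counting, but 99.3% of the gene starts equal those of GENCODE M21 (GRCm38). The deposited estimated counts were already whole numbers and derive from StringTie coverage, so 1 unit is not 1 read and no counting interval is given. The deposited FPKM values come from the same coverage. Estimated counts were fitted with edgeR 4.0.16 in R 4.3.3 (filterByExpr, TMM, quasi-likelihood test over the 4 groups, 8 residual degrees of freedom, Benjamini-Hochberg over 18703 genes, adjusted p under 0.05). The fit was also run on simulated data in which all libraries shared the same spread per gene. That run could not check the fit for lines of unequal spread, as seen here. DESeq2 1.42.0 and limma 3.58.1 (log2(FPKM + 1) and log2(FPKM + 0.1), mean FPKM of at least 1, or no filter) served as alternatives, with other scalings, filters, samples and each library left out. An offset of 0.5 CPM was used for SDs and correlations on the log2 scale. Each SE of a log2 fold change was derived as its absolute value divided by the square root of the F statistic of the edgeR test. Genes named are, per comparison, up to 6 called genes each with the largest rise and fall, the 5 highest and lowest in FPKM, a set of well-known ribosomal proteins and paralogs, up to 4 called genes per list with the smallest adjusted p, and Cspg4; others were named after their values were seen, and some genes the rule names are not reported here. The genes and lists were chosen with earlier results of these data known, so they give no independent support. No p-value was adjusted over the list alone and no set test was made.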

Additional observations from a re-analysis of the deposited data

Results flagged for a closer look

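The ratio of small over large subunit counts rose in every starved NG2|EDmut library and fell in every starved control library relative to serum, with mean log2 differences of 0.0292 and −0.0606. The difference between the lines was not tested.

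The interaction of line and medium called no cytosolic ribosomal protein gene, 4.39% of all tested genes and 8 genes of the related lists (edgeR, adjusted p under 0.05). These were 8% of the 25 other TOP mRNAs and 22.2% of the 18 regulators. They were also 9.09% of the 11 assembly and import factors and 1.28% of the 78 mitochondrial ribosomal protein genes. None of the 10 relatives was called. As the response of NG2|EDmut cells minus that of control cells on the log2 scale, the interaction was −0.7113 for Eif3h, 0.626 for Hnrnpa1, 1.2019 for Eef2k, −1.6535 for Deptor, 0.6325 for Larp1, 4.5475 for Mycn, 0.7578 for Ltv1 and 0.8778 for Mrps22. Not all of these calls were stable: over the alternative analyses the call was lost in 13 of 23 for Mycn, 13 of 26 each for Ltv1 and Larp1, 12 of 26 for Eif3h, 11 of 26 for Hnrnpa1, 3 of 26 for Mrps22, 2 of 24 for Deptor and 0 of 26 for Eef2k. Mycn ranged from 0.53 to 5.80 over them and stayed at or under 1.71 CPM in every library.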

How the results depend on the processing

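Over all alternatives, the calls of named genes kept their direction and call 2521 times, lost the call 349 times and reversed 0 times. This tally holds only genes already called in the full fit, from the lists those with the smallest adjusted p. The alternatives reuse the same libraries, so the tally gives no independent support. Fewer libraries or genes entered some of these fits by construction; the cause of the other changes was not tested. In serum, 2 ribosomal protein genes were higher with only the groups compared and when a log2 change of 0.5 or more was also required, where 7 were lower. Under starvation, 3 were higher without a low count filter, with the replicate block and with the fold limit, and 12 were lower by limma without a filter. Over all genes these serum fits called 3976 of 17401 and 5045 of 18703. The starvation fits called 6387 of 29862, 6596 of 18703, 6155 of 18703 and 6861 of 29862, in the order named. Starvation called 10 ribosomal protein genes in NG2|EDmut cells fitted alone, where 15.7% of all tested genes were called. With each library left out, serum gave 3 to 10 higher and 6 to 14 lower, starvation 2 to 6 higher and 12 to 29 lower, and the responses 0 to 4 in control cells, 0 in NG2|EDmut cells and 0 to 4 for the interaction. The medians then ranged from −0.19 to 0.02 in serum, −0.36 to −0.10 under starvation, −0.11 to 0.20 and −0.15 to −0.08 for the responses of control and NG2|EDmut cells, and −0.3132 to 0.0284 for the interaction. In the same fits, calls over all genes ranged from 4121 to 7657 in serum and from 5481 to 8655 under starvation. For the responses they ranged from 2225 to 6390 in control cells, 136 to 1453 in NG2|EDmut cells and 339 to 3901 for the interaction. Without both control serum replicate 1 and control starved replicate 2, chosen after seeing the data, 15 genes were higher in serum, 9 higher under starvation, and the responses gave 1 gene in NG2|EDmut cells, 5 in control cells and 5 for the interaction. Of all 19103 genes tested in that fit, 8416 were called in serum and 8517 under starvation. The responses called 1908 of them in NG2|EDmut cells, 6821 in control cells and 4549 for the interaction. The small over large difference under starvation was 0.0286 with FPKM and ranged from 0.04 to 0.07 over left-out libraries; that between starvation and serum in NG2|EDmut cells was 0.0218 with copies summed. No clear pairing by replicate number was seen: same-numbered libraries correlated at −0.275 to 0.248 in their deviations, with 3 of 18 pairs over 0.1. With deviations from means of 3 libraries this check cannot exclude a pairing, and the sources used here state none. The replicate block gave 3 higher and 8 lower in serum and 3 higher and 15 lower under starvation. Over all 18703 genes it called 5236 in serum and 6596 under starvation.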
